A study of Mus musculus with 8 samples.

Results

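A 10 Mb stretch of mouse chromosome 1, from 170 Mb to under 180 Mb on the mm9 build, holds 2 clusters of immune genes among genes of general function: the interferon-inducible Ifi200 family and the Slam family of leukocyte receptors. On the arrays used here, 276 probes start in this window. The members described are the 272 that remain, of 55681 non-control probes on the array, after the Fc receptor genes (Fcgr and Fcer1g) were left out, and they carry 174 gene names. Of these, 23 probes belong to the Ifi200 family, 13 to the Slam family and 236 to other genes, pseudogenes and noncoding intervals. The window was chosen by the fold changes of its probes between the genotypes on these same arrays, so the genotype differences below describe the members and do not support that choice.

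RNA of the prefrontal cortex (PFC) was measured in 8 male mice between 20 and 24 weeks of age, of which 4 were α-Gal A(-/0) and 4 were wildtype C57BL/6J. The α-Gal A(-/0) line has a C57BL/6 background and a null mutation of the X-linked gene of α-galactosidase A, the lysosomal enzyme that is deficient in Fabry disease. Per the study's methods, the mice for the arrays came from separate inbred colonies. A difference of genotype, a difference in the genetic background of the colonies and a difference in the colonies' housing history therefore cannot be told apart. Each mouse gave 1 one-color array, and all 8 arrays lay on 1 slide, with 3 wildtype arrays and α-Gal A(-/0) mouse 1 in row 1 and wildtype mouse 4 and the other 3 α-Gal A(-/0) arrays in row 2. Values are log2 signals after quantile normalization, in which 1 unit is a doubling, and all differences are α-Gal A(-/0) minus wildtype. Where 4 values are given for a genotype, they are those of mice 1 to 4 in order, with α-Gal A(-/0) first where 2 such runs are set against each other. A probe was tested if it was well above background, by the flag of the scanner software, on all 4 arrays of at least 1 genotype, and it was called if its adjusted p in limma was under 0.05 (Benjamini-Hochberg over 34339 tested probes).

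Between 35218 and 38240 probes stood well above background on 7 arrays, and 29943 on the array of α-Gal A(-/0) mouse 2. The probe of Gla, the disrupted gene, did not separate the genotypes (wildtype 17.09 ± 0.07, α-Gal A(-/0) 17.15 ± 0.03, mean ± SD, n = 4 each, adjusted p = 0.703 in limma). It gives no check of the labels, since the position of the disruption relative to this probe is not given in the sources used here. Of 7 cortical neuron markers, 5 had a lower mean in α-Gal A(-/0) mice (median -0.21), with summed signals of 95390 to 107400 against 109400 to 120000 in wildtype mice, which did not overlap. Snap25, the brightest marker, weighs most in these sums (mean 15.69 in α-Gal A(-/0) and 16.01 in wildtype mice). The differences ran from -0.32 for Snap25 to 0.15 for Gad2. All 5 markers of striatal neurons had a higher mean (median 0.62), with summed signals of 33760 to 87980 against 24390 to 59940, and no probe of either list was called.

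Most Ifi200 genes encode proteins with a HIN domain, which binds DNA, and most encode a pyrin domain for contact with partner proteins. Their transcription is induced by interferons, and Aim2, their best-known member, senses DNA in the cytosol and assembles an inflammasome. The Slam genes encode receptors of the immunoglobulin superfamily on T, B and natural killer cells and on myeloid cells. Most Slam receptors bind their own kind on a neighboring cell and signal through the adapter SAP and its relatives. In the brain, microglia are the resident cells known to transcribe genes of both clusters. In an extract of whole tissue, fewer cells of a type and less RNA per cell cannot be told apart.

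The sequences of the probes show how far neighboring transcripts can be separated. Each probe has 60 bases, of which a run of 30 is given here on the strand of the probe. The Ifi204 probe (chr1:175677647-175677706, mm9, minus strand) and a probe to the noncoding interval chr1:175705225-175717250 (at chr1:175706660-175706719, minus strand) share a run of 18 bases, printed in capitals:
Ifi204, bases 13 to 42: CTCTCTGGAACCATACTTctgaaaacctga
interval, bases 31 to 60: agtcaggagaaaCTCTCTGGAACCATACTT
A probe to AI607873 (Ifi207 in RefSeq) and a probe to the interval chr1:175653557-175671940 lie at the same position (chr1:175653663-175653722, minus strand) and differ by 1 substitution, A18T, counted from the 5′ end of the probe with the base of the AI607873 probe first. The base in capitals is the one that differs:
AI607873, bases 1 to 30: gctctactaaaagcagcActtaattctaag
interval, bases 1 to 30: gctctactaaaagcagcTcttaattctaag
The interval probe passed the filter on low signal, and the AI607873 probe, well above background in 3 wildtype mice and in no α-Gal A(-/0) mouse, did not. Both cover the same stretch of the genome, so their values are not independent. For the other tested Ifi200 probes, the longest run shared with a probe under another gene name had 13 to 17 bases.

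The promoters of the Ifi200 genes were searched in RefSeq windows of GRCm38.p6 that reach from 250 bases before to 50 bases after the transcription start. The motif was GAAA, then any 2 bases, then GAAA, on either strand, as in the core of the interferon-stimulated response element. It was found in 8 of 12 windows of 10 Ifi200 genes and in 1 of 8 windows of 8 Slam genes (Slamf8), against 3.44% of all 32851 windows. The stretches around it are shown with the motif in capitals. They are identical between Mndal and Ifi203 and between Ifi208 and Ifi213, and otherwise differ outside the motif. The last, at another start of Mndal, has the motif on the opposite strand and is unlike the others:
Mndal, chr1:173880204-173880233, minus strand: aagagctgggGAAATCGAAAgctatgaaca
Ifi203, chr1:173942508-173942537, minus strand: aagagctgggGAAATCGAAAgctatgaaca
Ifi211 (Mnda on the array), chr1:173913064-173913093, minus strand: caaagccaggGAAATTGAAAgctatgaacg
Ifi207, chr1:173741831-173741860, minus strand: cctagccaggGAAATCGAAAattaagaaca
Ifi208 (Pydc3 on the array), chr1:173673597-173673626, plus strand: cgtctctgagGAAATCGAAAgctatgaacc
Ifi213 (Pydc4 on the array), chr1:173599326-173599355, minus strand: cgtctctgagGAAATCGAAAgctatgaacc
Ifi214 (BC094916 on the array), chr1:173536017-173536046, minus strand: agtctctgagGAAATCGAAAgcgatgcact
Mndal, another start, chr1:173879993-173880022, minus strand: ttttgagtcaTTTCTCTTTCtactcaaaac
These coordinates are on GRCm38.p6 and cannot be set beside the mm9 positions of the probes. The motif starts between 35 and 79 bases before the transcription start. The windows of Aim2, Ifi202b and Ifi209 (Pyhin1 on the array) do not hold these letters, and Ifi204 and Ly9 have no entry in the promoter table.

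Of the 272 members, 147 were tested, and 4 of them were called, all among the 132 tested probes outside both families. Over all probes the share called was 0.885%. 1 of the 4 was higher and 3 were lower in α-Gal A(-/0) mice, where 0.306% and 0.58% of all tested probes were called in these directions. By the threshold of the study (1.2-fold or more, with p no higher than 0.01 before adjustment), here applied to the p of limma, 15 members passed, 3 higher and 12 lower, against 3.46% of all tested probes (1.15% higher and 2.31% lower). The genotypes did not overlap in 19 members, 14 of them with all wildtype mice above, against 7.94% of all tested probes (4.86% with wildtype above and 3.08% with α-Gal A(-/0) above). Of 123 members above background on all 8 arrays, 8 had all wildtype mice above and 5 had all α-Gal A(-/0) mice above. Of all 29167 such probes, 1363 and 990 did so. With the per-probe test of unequal variances named in the study's methods, 7 members passed the study's criterion and 1 was called. On probes above background on all 8 arrays 7 passed it. The count of calls was also 1 with no filter on signal and 1 with slide row as a block, and it depended on single mice. It was 1 without α-Gal A(-/0) mouse 1, 2 or 3 or wildtype mouse 1 or 3, and 2 without wildtype mouse 4. Past the criterion were 9 members with slide row as a block, 9 without α-Gal A(-/0) mouse 1 or 2 and 10 without α-Gal A(-/0) mouse 3 or wildtype mouse 1.

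Both families had medians below that of the rest of the block. The median difference was -0.60 for the 6 tested Ifi200 probes, -0.51 for the 9 tested Slam probes and -0.01 for the 132 others, and it was -0.02 over all tested probes. With normexp background correction the medians of the families were -0.25 and -0.18, and with no filter on signal that of the Ifi200 family was -0.19. All 6 Ifi200 probes and 7 of 9 Slam probes had a lower mean in α-Gal A(-/0) mice, as had 58.3% of the other members and 58.0% of all tested probes. 1 of the Ifi200 probes and 5 of the Slam probes passed the filter only through the wildtype mice, which favors a lower value in α-Gal A(-/0) mice. Of all 34339 tested probes, 5127 passed only through the wildtype mice and 45 only through the α-Gal A(-/0) mice. Among probes well above background on all 8 arrays, the median was -0.58 for 5 Ifi200 probes, 0.06 for 4 Slam probes and -0.01 for 114 others. Of the 12 probes past the criterion and lower in α-Gal A(-/0) mice, 5 lay between 173 and 174 Mb, in and before the Slam cluster, and 5 between 175 and 176 Mb, at the Ifi200 genes.

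**Figure D1:**
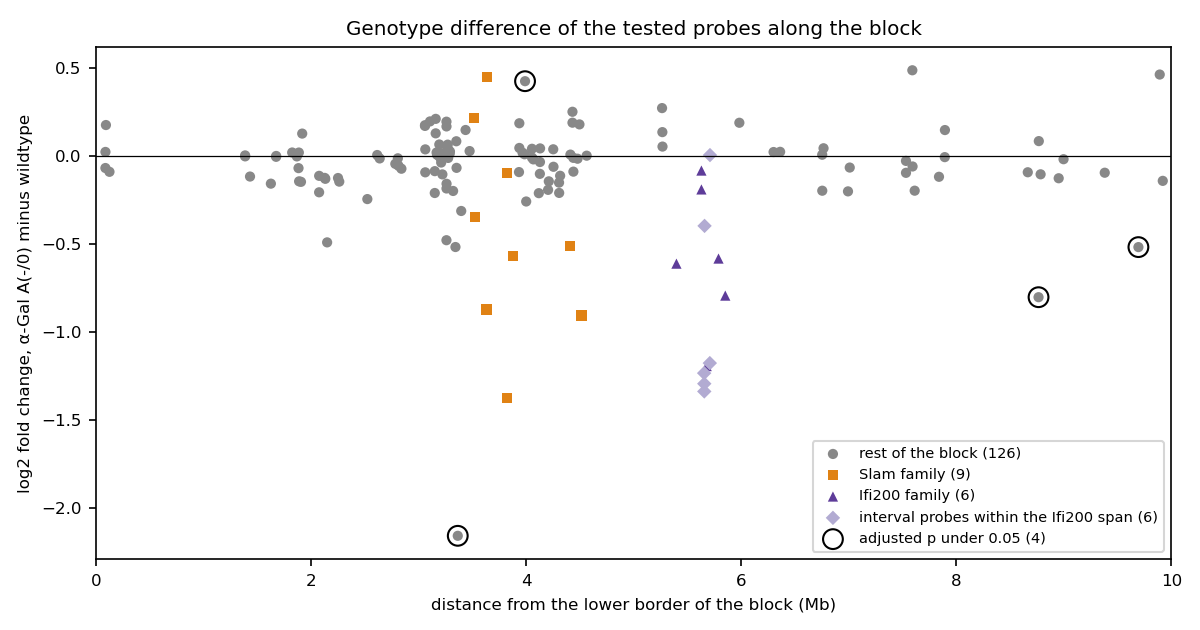
Log2 fold change (α-Gal A(-/0) minus wildtype) of each of the 147 tested probes against its distance from the lower border of the block in Mb, colored by gene family, with called probes circled. The Ifi200 and Slam probes reach down to -1.19 and -1.37, while most gray points of the rest of the block lie near 0 on both sides of these clusters.

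Of the probes nearest to the borders of the window, that of Adss was the only one called. The 3 tested probes nearest to the lower border on the outside, of the retinoid receptor Rxrg and of Mgst3, had differences between -0.32 and 0.45. Inside the upper border, BB116930 had -0.14, Gm7068 0.46 and Adss -0.52, and the 3 nearest probes outside had values between -0.19 and 0.27. Of 148 tested probes in the 10 Mb below and 149 in the 10 Mb above the window, none was called. The nearest called probe below it was that of Neu4, a sialidase, at a distance of 74.1 Mb (-0.66, adjusted p = 0.012 in limma), followed by the interferon-induced nuclear body genes Sp140 and Sp110.

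Within the Ifi200 cluster, Ifi204, whose protein binds DNA and is induced in myeloid cells, had the largest mean difference of the family and also the widest spread. Its log2 signal was 6.08, 5.92, 5.83 and 6.46 in α-Gal A(-/0) mice and 7.81, 6.16, 8.37 and 6.73 in wildtype mice. Wildtype mice 1 and 3 stood above all others, and wildtype mouse 2 lay within the range of the α-Gal A(-/0) mice. The difference was -1.19 (standard error 0.45, adjusted p = 0.353 in limma), which was within the spread between mice by this test. Ifi203 had 6.91, 6.65, 6.70 and 6.94 in α-Gal A(-/0) mice against 7.95, 7.02, 8.16 and 7.21 in wildtype mice, with a difference of -0.79 (standard error 0.25, adjusted p = 0.273). Its groups did not overlap, but wildtype mouse 2 was only just above the highest α-Gal A(-/0) mouse. Mndal, a gene of the myeloid nuclear differentiation antigen type, had 6.27, 6.40, 6.45 and 6.62 against 7.04, 6.75, 7.44 and 6.85 (-0.58, standard error 0.15, adjusted p = 0.186), again without overlap and with wildtype mice 1 and 3 highest.

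Aim2 was near background, with 4.21, 4.07, 4.05 and 4.60 in α-Gal A(-/0) mice and 4.70, 4.85, 4.58 and 5.23 in wildtype mice. It was well above background in 1 α-Gal A(-/0) mouse and in all 4 wildtype mice, and its groups overlapped by the value of α-Gal A(-/0) mouse 4. The Aim2 difference of -0.61 (standard error 0.17, adjusted p = 0.217 in limma) passed the study's criterion but was not called. Both tested probes of Pydc3 showed small differences, -0.19 (standard error 0.08) and -0.08 (standard error 0.09), with overlapping groups. None of the 6 probes was called, and none was called under any alternative of the processing.

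The intervals between Pydc3 and Mndal, which the array lists as long noncoding RNA, are named only by their coordinates and strand, forward (F) or reverse (R). On strand R, on which AI607873 and Ifi204 also lie, 6 of 16 interval probes were tested, and on strand F none of 10 was. The probe at the position of AI607873 had 4.16, 4.29, 4.32 and 4.17 in α-Gal A(-/0) mice and 5.55, 4.80, 6.17 and 5.35 in wildtype mice, with a difference of -1.23 (standard error 0.25, adjusted p = 0.084). The probe that shares 18 bases with the Ifi204 probe had 5.86, 5.82, 6.01 and 5.96 against 7.48, 6.29, 7.93 and 6.66 (-1.18, standard error 0.33, adjusted p = 0.218). In both, the groups did not overlap and the α-Gal A(-/0) mice lay close together, while the wildtype mice spread over more than 1 log2 unit. The other probe of the interval chr1:175705225-175717250 had means of 7.11 in α-Gal A(-/0) and 7.10 in wildtype mice, with overlapping groups. The remaining 3 probes had differences of -1.29, -1.34 and -0.40 with overlapping groups. Of the 6 probes, 4 passed the filter on low signal only through the wildtype mice, and none was called. Over all 34339 tested probes, 5127 passed only through the wildtype mice.

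In the stretch from Aim2 to Ifi202b (chr1:175396036-175893982, 56 probes), 27, 16, 26 and 16 probes were well above background in wildtype mice 1 to 4 and 8, 7, 12 and 14 in α-Gal A(-/0) mice 1 to 4. In 14 of these 56 probes (25%) at least 1 wildtype mouse and no α-Gal A(-/0) mouse was above background, and in 1 probe it was the reverse. Over all probes these shares were 3.87% and 2.15%. BC094916, Pydc4, Pyhin1 and Ifi202b, of which no probe was well above background in any mouse, have no measurable level here.

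**Figure D2:**
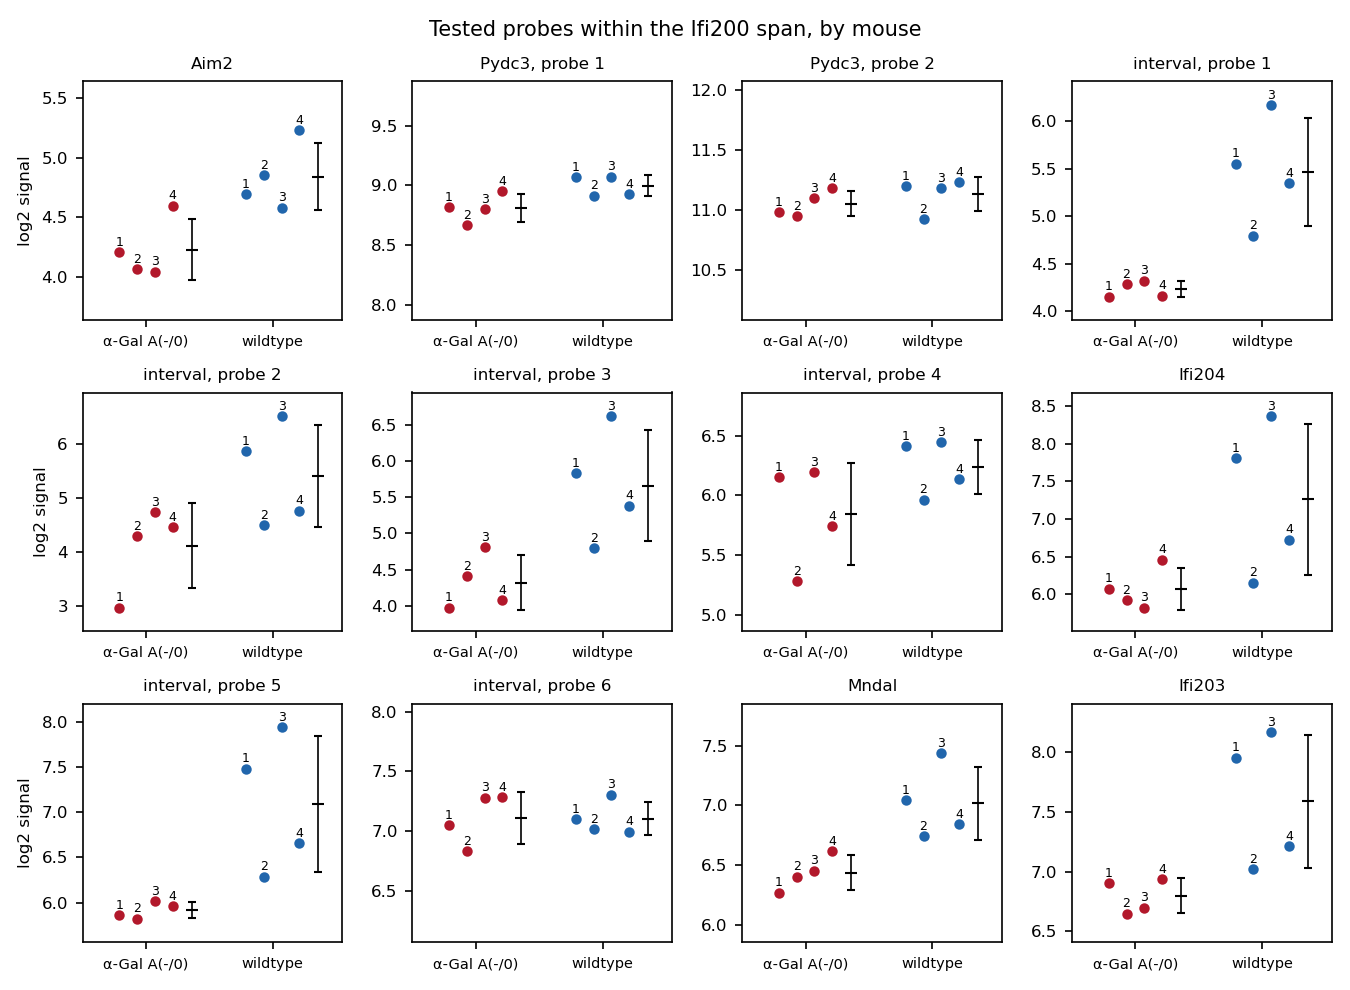
Log2 signal of the 12 tested probes from Aim2 to Ifi203 in each mouse, with mouse numbers above the points and mean ± SD (n = 4) beside each genotype, in order of position. Wildtype mice 1 and 3 are the highest wildtype mice in 10 of the 12 panels, and the α-Gal A(-/0) mice lie below the wildtype mean in most of them.

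The order of the wildtype mice recurred from probe to probe, a pattern that was noticed after the values were seen. In 10 of the 12 tested probes of the Ifi200 stretch, mice 1 and 3 were the highest wildtype mice, as in 4 of 9 Slam probes, in 10.3% of the members outside both and in 15.4% of all tested probes. The SD within wildtype mice was larger than that within α-Gal A(-/0) mice in 5 of 6 Ifi200 probes, against 34.2% of all tested probes.

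Genes of the interferon response outside the block had this order too. Of 24 such genes, each taken by its brightest tested probe, 23 had a lower mean in α-Gal A(-/0) mice, with a median difference of -0.61, and mice 1 and 3 were the highest wildtype mice in 19. The probes of Rsad2, Irf7, Mx1 and Ifi44 passed the filter on low signal only through the wildtype mice. Passing in this way favors a lower value in α-Gal A(-/0) mice. Of the 24, Oasl2, an antiviral gene of the response, had a difference of -0.37 with α-Gal A(-/0) mouse 2 at 11.04, above all other mice, and the other 3 at 7.71 to 8.08. Isg15, a ubiquitin-like modifier and common marker of the response, had 10.90, 9.89, 11.05 and 9.95 in wildtype mice and 9.62, 9.71, 9.69 and 9.73 in α-Gal A(-/0) mice. Usp18, which removes Isg15 from proteins, had 8.34, 7.05, 8.72 and 7.26 in wildtype mice and 6.41, 6.45, 6.84 and 6.91 in α-Gal A(-/0) mice. In both, the genotypes did not overlap, but the wildtype mice covered more than 1 log2 unit, and neither was called (adjusted p = 0.320 and 0.263 in limma). 1 of the 24 genes was called, Ifnar1, a subunit of the type I interferon receptor, which fell by 0.82 at its brightest probe (standard error 0.07, adjusted p = 8.4e-04) and had -0.26 and 0.01 at its other probes. All 4 inflammasome genes that work with Aim2 (Pycard, Casp1, Il1b and Il18) had a lower mean in α-Gal A(-/0) mice, with a median difference of -0.26 and none called. Il1b, at -0.64, was well above background in 1 α-Gal A(-/0) mouse and passed the filter only through the wildtype mice. Casp1 had -0.42, Pycard -0.09 and Il18 -0.08.

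Markers of microglia had lower means as well. All 10 markers, each taken by its brightest probe, had a lower mean in α-Gal A(-/0) mice, with a median difference of -0.26. Of these, 2 were called, among them Csf1r (-0.44), the receptor on which microglia depend for survival. Other Csf1r probes had -0.37 (adjusted p = 0.061 in limma) and 0.59, the latter with α-Gal A(-/0) mouse 2 at 12.12. The summed signal of the 10 markers was 80780 to 88220 in α-Gal A(-/0) mice and 90900 to 103000 in wildtype mice. Itgam, the brightest marker, weighs most in these sums (mean 15.37 in α-Gal A(-/0) and 15.41 in wildtype mice). The other Itgam probes were far dimmer, with means between 5.54 and 7.35. All 10 were well above background on all 8 arrays. A lower mean was not limited to this list, since all 4 astrocyte markers had one too (median -0.15, summed signals of 23840 to 26780 against 27420 to 28280, none called), as had 5 of the 7 cortical neuron markers. Medians were 0.14 for 3 oligodendrocyte markers and 0.01 for 3 endothelial markers. Of 9 lymphocyte markers 4 were tested, with none called, summed signals of 1884 to 2307 and 1823 to 2124, and Cd8a, Ms4a1 and Ncr1 above background in no mouse. Nkg7 weighs most in the lymphocyte sums (mean 10.34 in α-Gal A(-/0) and 10.26 in wildtype mice), and its other probe was above background in no mouse. Across mice, the median deviation of the 24 interferon genes was 0.64, -0.19, 0.67 and 0.04 in wildtype mice 1 to 4, that of the 6 Ifi200 probes 0.24, -0.08, 0.44 and 0.09, and that of the microglia markers 0.17, 0.11, 0.27 and 0.03. The part of these cell types and of the interferon response in the Ifi200 and Slam values was not tested.

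**Figure D3:**
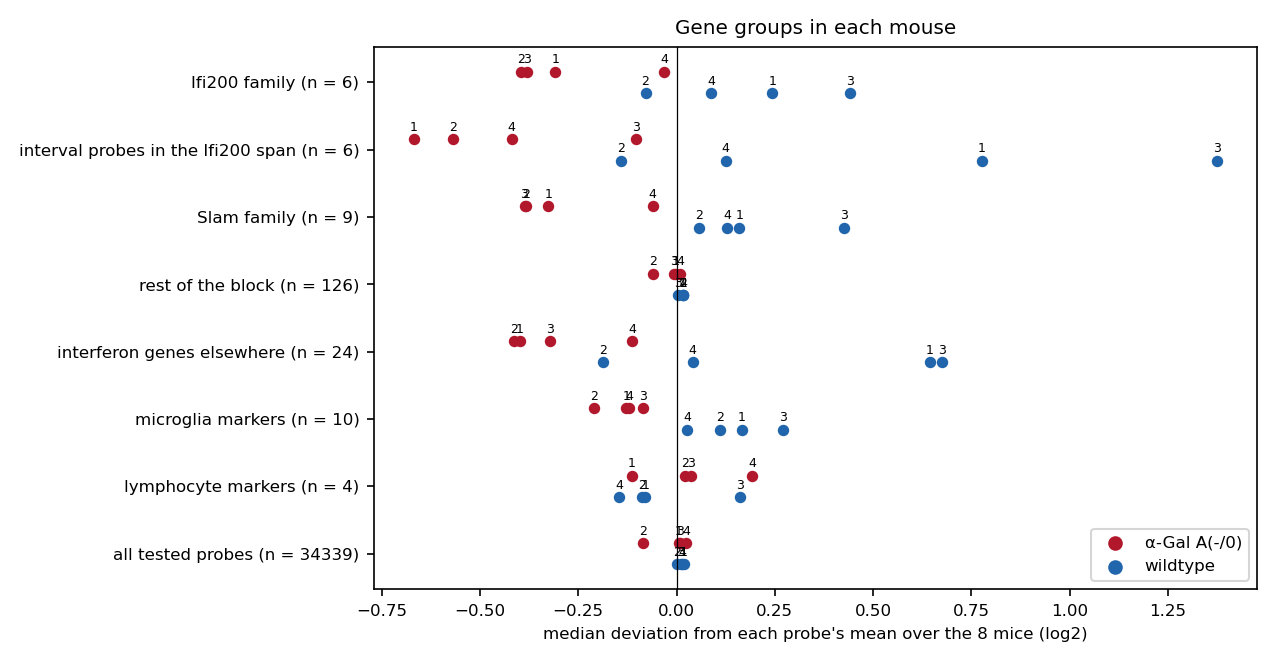
Median over the probes of a group of the deviation from each probe's mean over the 8 mice, in log2 units, by mouse (numbered points) and genotype, with the number of probes or genes in each group. Wildtype mice 1 and 3 stand to the right in the Ifi200 stretch and in the interferon genes elsewhere, while the rest of the block stays between -0.06 and 0.02 in every mouse.

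The Slam genes lie before the Ifi200 genes on the chromosome. Cd48, a ligand of Cd244 on most leukocytes, was measured by probes at chr1:173629721-173629780 and chr1:173635201-173635260, both on the plus strand:
Cd48, the first probe, bases 1 to 30: gtcagcaatcctgtaagcagcaagaacgac
Cd48, the second probe, bases 1 to 30: cctgtgtgcccagtcctttacaaagatttc
The first had 5.29, 5.09, 5.46 and 5.32 in α-Gal A(-/0) mice and 6.12, 5.75, 6.48 and 6.30 in wildtype mice. It was well above background in 3 α-Gal A(-/0) mice and passed the filter on low signal only through the wildtype mice. The groups did not overlap, and the difference of -0.87 (standard error 0.15) stood at the edge of the test (adjusted p = 0.051 in limma). It passed under 4 of 16 alternatives, by a shift to the 75th percentile, with trended and robust variances, with the replicate number as a block and without wildtype mouse 2. The second probe had 7.78, 10.77, 7.70 and 8.00 against 8.14, 7.94, 8.41 and 7.94. α-Gal A(-/0) mouse 2 stood above all other mice there, of which the highest had 8.41, so the mean difference of 0.45 rested on it, and without that mouse it was -0.28. At the first probe the same mouse had the lowest value of all 8.

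Cd84, a self-binding receptor of myeloid cells, B cells and platelets, also had probes that differed. One of them covers an exon junction (chr1:173816502-173818732, plus strand) and the other lies further downstream (chr1:173820027-173820086, plus strand):
Cd84, junction probe, bases 1 to 30: ccaacatgaaggacagaagtctgcctaagg
Cd84, downstream probe, bases 1 to 30: ctaataggcagcaaagcataagcaggtctc
The junction probe had 4.14, 3.14, 4.26 and 5.21 in α-Gal A(-/0) mice and 5.83, 5.36, 5.58 and 5.49 in wildtype mice. The groups did not overlap, but only 1 α-Gal A(-/0) mouse was well above background, and the difference of -1.37 (standard error 0.37) was not called (adjusted p = 0.212). The call was made only without α-Gal A(-/0) mouse 4, of 16 alternatives, at an adjusted p of 0.049. At the downstream probe, which was above background in all mice, the difference was -0.09 (standard error 0.12).

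Slamf6, a self-binding receptor of lymphocytes, had 4.65, 4.51, 4.61 and 3.88 in α-Gal A(-/0) mice and 4.85, 5.04, 5.07 and 4.94 in wildtype mice, without overlap (-0.56, standard error 0.17, adjusted p = 0.244). Its probe was well above background in 2 α-Gal A(-/0) mice and passed the filter on low signal only through the wildtype mice. Slamf8 and Slamf9, members of the family in myeloid cells that lack the signaling motifs of most others, followed the order of the Ifi200 genes. Slamf8 had 5.54, 4.32, 6.47 and 4.80 in wildtype mice against 4.05 to 4.70 in α-Gal A(-/0) mice (-0.90, standard error 0.42). It too passed the filter only through the wildtype mice. Slamf9 had 8.17, 7.64, 8.43 and 7.61 against 7.31, 7.33, 7.32 and 7.86 (-0.51, standard error 0.21). In both, wildtype mice 2 and 4 lay within or next to the α-Gal A(-/0) range, and the adjusted p was 0.442 for Slamf8 and 0.395 for Slamf9.

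Cd244, the receptor of Cd48, had a difference of 0.22 (standard error 0.12), in the other direction, and Ly9 one of -0.35 (standard error 0.25), both with overlapping groups. The Cd244 probe was the brightest of the tested Slam probes (mean 12.65 in α-Gal A(-/0) and 12.44 in wildtype mice). It shares a run of 21 bases with a probe of Glrx2, and the effect of this on its signal was not tested. The probes of Slamf1 and Slamf7 were well above background in no mouse. Of the genes through which Slam receptors signal, Sh2d1a, which encodes SAP, and Sh2d1b2 were above background in no mouse, and Fyn, Inpp5d, Ptpn6 and Ptpn11 were tested. All 4 had a lower mean in α-Gal A(-/0) mice, by a median of -0.18, and none was called.

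**Figure D4:**
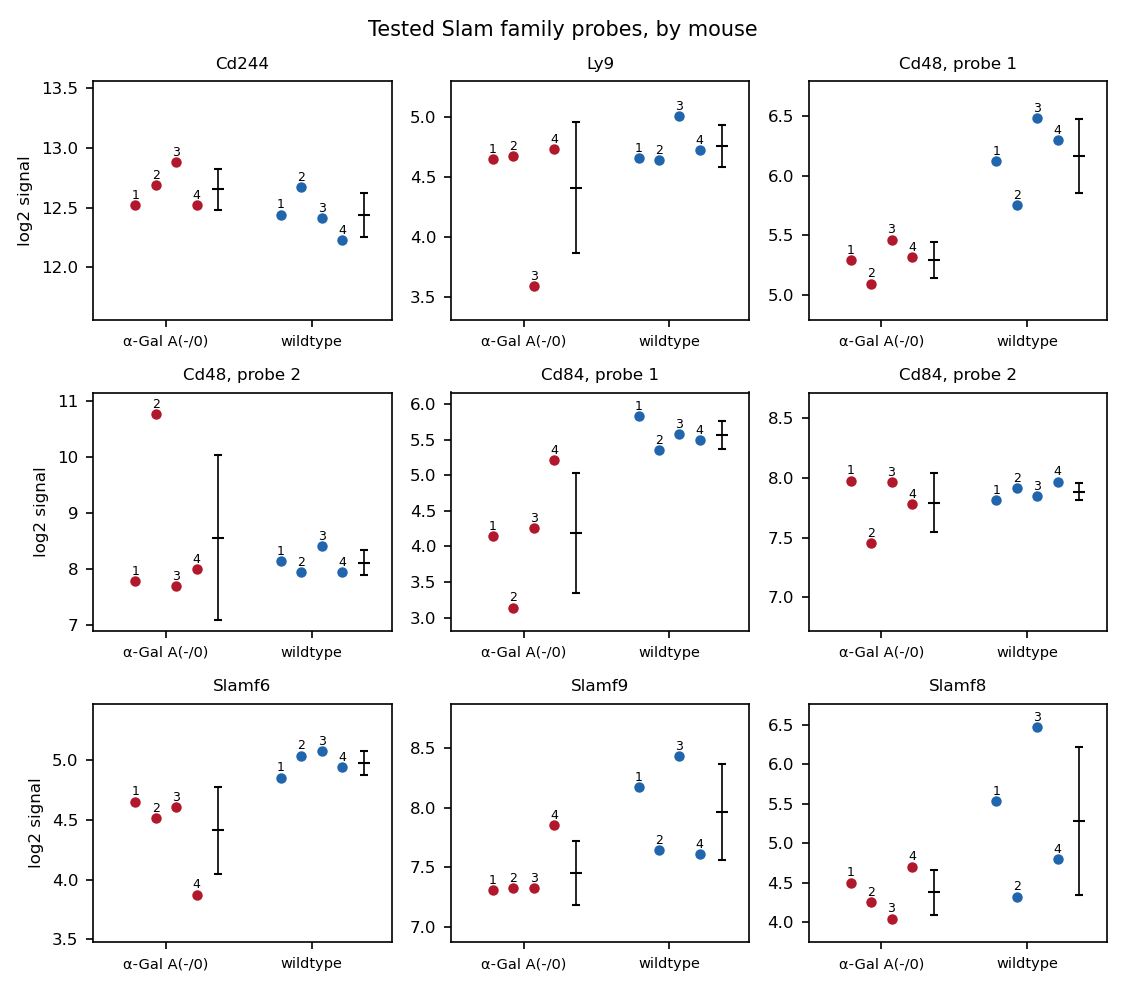
Log2 signal of the 9 tested Slam family probes in each mouse, with mouse numbers above the points and mean ± SD (n = 4) beside each genotype, in order of position. The first Cd48 probe, the first Cd84 probe and Slamf6 separate the genotypes. All of them passed the filter on low signal only through the wildtype mice. At the second Cd48 probe α-Gal A(-/0) mouse 2 stands alone at 10.77.

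The 4 called probes lay outside both families, and none followed the order of wildtype mice 1 and 3. The largest difference of the block was that of a probe to the noncoding interval chr1:173353316-173367449, strand R, at chr1:173361681-173361740 (minus strand). A run of it is shown because no other member separated the genotypes as far:
interval, bases 1 to 30: tgcacatgtgtgctgtgtcagtgcacatgt
It had 5.17, 5.46, 5.22 and 5.54 in α-Gal A(-/0) mice and 7.38, 7.51, 7.59 and 7.55 in wildtype mice. The groups lay 4.46-fold apart with little spread within either, and the probe fell by 2.16 (standard error 0.10, adjusted p = 3.6e-05 in limma). It was called under all 16 alternatives in which it was tested, with an adjusted p of at most 0.012, but with background-corrected mean signals the difference was -1.10. It passed the filter on low signal through the wildtype mice, with 3 of 4 α-Gal A(-/0) mice well above background. The probe to strand F of this interval, which overlaps its position, was well above background in 1 wildtype mouse and was not tested.

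Hmga2-ps1, a pseudogene of the chromatin protein Hmga2, had 6.82, 6.54, 6.54 and 7.07 in α-Gal A(-/0) mice and 7.51, 7.70, 7.62 and 7.33 in wildtype mice, and fell by 0.80 (standard error 0.14, adjusted p = 0.043). Adss, adenylosuccinate synthase, which makes the precursor of AMP, had 10.58, 10.41, 10.43 and 10.60 in α-Gal A(-/0) mice against 10.84 to 11.21 in wildtype mice, and fell by 0.52 (standard error 0.09, adjusted p = 0.046). In both the groups did not overlap. These calls were kept under 6 and 5 of 17 alternatives, and with slide row as a block the adjusted p was 0.192 for Hmga2-ps1 and 0.129 for Adss. Nhlh1, a helix-loop-helix transcription factor of developing neurons, rose by 0.43 at one probe (7.13, 7.19, 7.25 and 7.35 against 6.73, 6.84, 6.92 and 6.72, adjusted p = 0.042), a call kept under 3 of 17 alternatives and not with slide row as a block (adjusted p = 0.183). The called Nhlh1 probe shares a run of 20 bases with a probe of Fam160a2 on chromosome 7, and the effect of this on its signal was not tested. The other Nhlh1 probe had 0.01 (standard error 0.08), with overlapping groups.

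Among the other members past the study's criterion, which were not called, Kmo, the kynurenine 3-monooxygenase of tryptophan breakdown, had 6.26, 6.00, 5.83 and 6.16 in α-Gal A(-/0) mice and 5.57, 5.39, 5.67 and 5.67 in wildtype mice (0.49, standard error 0.11, adjusted p = 0.112). Kmo is known to be transcribed in microglia. Its other probe was above background in no mouse. Gm7068, a predicted gene chosen for mention after its values were seen, had a difference of 0.46 (adjusted p = 0.075), and Arhgap30, a GTPase-activating protein of blood cells chosen in the same way, one of -0.52 (adjusted p = 0.214).

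**Figure D5:**
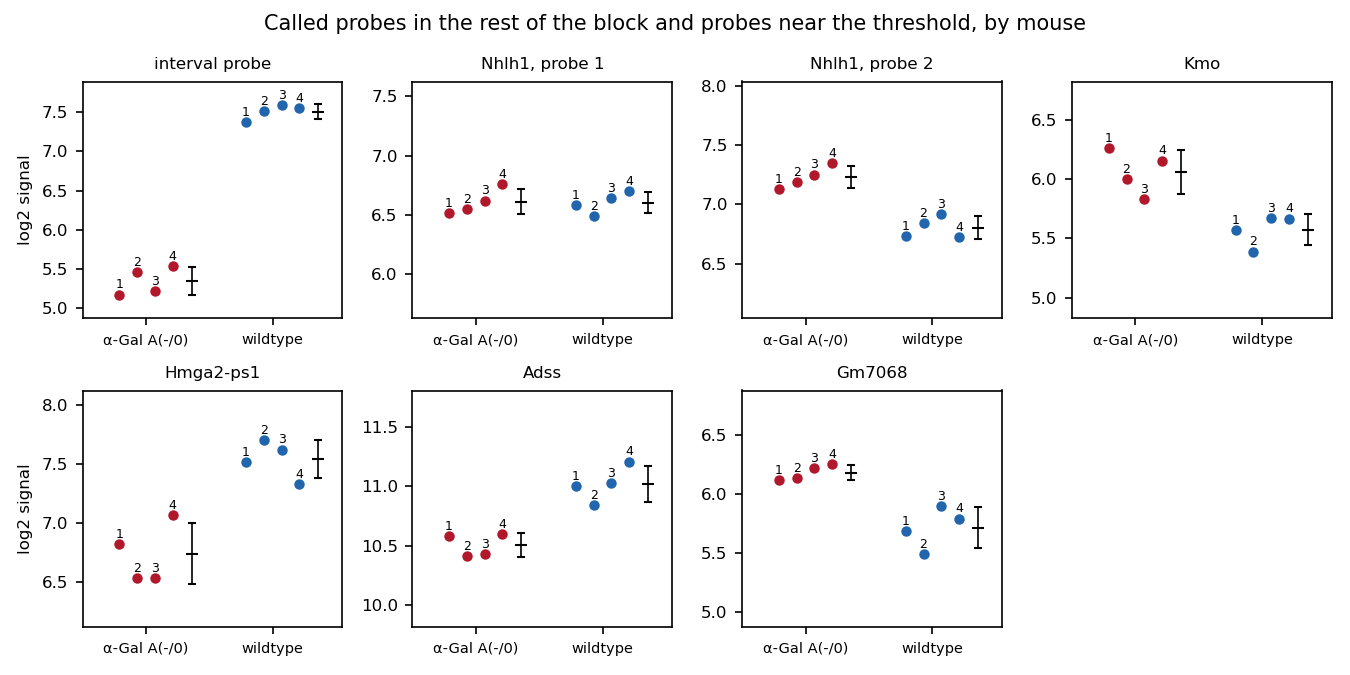
Log2 signal of the 4 called probes of the block, the other Nhlh1 probe, Kmo and Gm7068 in each mouse, with mouse numbers above the points and mean ± SD (n = 4) beside each genotype. The interval probe separates the genotypes by 2.16 log2 units with an SD of 0.09 within wildtype and 0.18 within α-Gal A(-/0) mice, and 1 of the Nhlh1 probes separates them while the other does not.

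The genes around the clusters differed little. Over 12 lists of members by role, 70 probes of 49 genes were tested, and the Nhlh1 probe was the only one called. Of the mitochondrial enzymes, fumarate hydratase (Fh1) had -0.09 and -0.03 at its probes and the succinate dehydrogenase subunit Sdhc -0.09 and 0.04. The potassium channel Kcnj10 of astrocytes had -0.15 (standard error 0.08). These were small next to Igsf9, an adhesion molecule of dendrites and synapses, with 0.25 and 0.19 at its 2 probes, and F11r, a junctional adhesion molecule, with -0.31 (standard error 0.13, adjusted p = 0.402). Apoa2, an apolipoprotein of high-density lipoprotein, had 12.47, 12.62, 12.56 and 12.80 against 12.36, 12.42, 12.44 and 12.40, without overlap, and 0.21 (standard error 0.08, adjusted p = 0.328). Rgs4, Rgs5 and Rgs7, which speed the inactivation of G proteins, had differences between -0.16 and 0.00. The kinase Uhmk1 had -0.12. Of 21 odorant receptor probes 17 were above background in no mouse, and the 3 tested had differences between 0.02 and 0.19.

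Where a gene or interval had several tested probes, these mostly gave like values. In 26 of 32 such cases the largest gap between probes was under 0.3, and the 6 exceptions were Cd48, Cd84, Nhlh1 and 3 noncoding intervals. The remaining 125 members could not be tested. Of these, 90 were well above background in no mouse, among them 13 of the 23 Ifi200 probes.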

How the data were processed

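Agilent scanner text files of 8 one-color arrays were used, with the processed signal intensity as deposited by the authors' software, Agilent Feature Extraction 10.7.3.1 (per the labels' processing notes), with spatial and multiplicative detrending and no local background subtraction. The mean signal and background intensity as deposited entered 1 alternative only. Spots of a probe were averaged, log2 transformed and quantile normalized over non-control probes, and 81 probes with a non-uniform spot were left out. limma 3.58.1 in R 4.3.3 compared the genotypes over all tested probes, and was checked on simulated data. The deposited series value table was not used because its columns did not follow their sample names. Positions are mm9 as deposited and RefSeq names matched by accession (GRCm38.p6) for 171 of 272 members. Members, lists and the rule for named genes (tested probes of both families, called probes of the rest, up to 3 probes of lowest p per role list, and called probes nearest each border) were chosen with earlier results of these data known. Nothing states whether mice were littermates. The number of arrays limits precision. A few members and markers are not reported here by name.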

Additional observations from a re-analysis of the deposited data

Results flagged for a closer look

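Values far from the other 3 of their genotype were found in 11 of 112 groups of 4 mice examined, where chance gives about 1 in 20 (Dixon's test of the gap to the nearest value over the range). One was Cd48 at its second probe in α-Gal A(-/0) mouse 2, at 10.77 against 7.697 to 8.001 in the other 3. On the array of that mouse, the total of probes above background was also apart, 29943 against 35218 to 36139. α-Gal A(-/0) mouse 4 was apart for Slamf9 (7.855 against 7.311 to 7.328), Tomm40l (10.28 against 10.48 to 10.51), Dcaf8 (12.6 against 12.3 to 12.34) and the number of Ifi200 probes well above background (6 against 5). Ly9 was low in α-Gal A(-/0) mouse 3, at 3.588 against 4.65 to 4.733. Among wildtype mice, mouse 2 was low for 1 Pydc3 probe (10.92 against 11.18 to 11.23), mouse 3 high for Olfr414 (6.711 against 6.458 to 6.473), and mouse 4 high for Olfr417 (5.381 against 4.568 to 4.684) and low for the number of Slam probes well above background (9 against 10). The flags for the numbers of Ifi200 and Slam probes rest on tied whole numbers, to which the rate of 1 in 20 does not apply. The groups come from the same arrays and are not independent.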

How the results depend on the processing

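No Ifi200 probe was called under any of the alternatives. The count of called members was 4, and it was 1 with no filter on signal, with the methods' Welch test and with slide row as a block, and 2 with the replicate number as a block, where the part outside both families held 1. It ran from 1 to 4 without single mice (1 to 3 outside both families), and 15 members past the criterion became 7 on probes above background on all 8 arrays and by the methods' test, 9 with slide row as a block and 9 to 16 without single mice. In the Slam family 1 probe was called by the 75th percentile shift, with trended and robust variances and with the replicate block, and 0 to 1 without single mice. Of the 7 calls among named probes, 3 were made with no filter and with the replicate block, 1 by the methods' test, 2 with slide row as a block and 2 to 6 without single mice. The numbers do not pair the mice (correlations of deviations from -0.09 to 0.15). The Ifi200 median of -0.60 was -0.25 with normexp background correction and -0.19 with no filter, and the Slam median of -0.51 was -0.18 with normexp, 0.0619 on all 8 arrays and -0.35 with 1 probe per gene. The median outside both was -0.0465 by the percentile shift and -0.0415 to -0.00855 without single mice. Of the named probes, 9 small or unstable differences turned in sign. With normexp these were the uncalled Nhlh1 probe (-0.0202), Olfr414 (-0.0133) and Olfr417 (-0.0314), and with slide row Nhlh1 (-0.0533) and Olfr417 (-0.22). Without single mice the ranges were -0.155 to 0.0204 for the downstream Cd84 probe, -0.28 to 0.74 for the second Cd48 probe, -0.0387 to 0.0432 for Nhlh1, -0.0473 to 0.0318 for Rgs4, -0.0159 to 0.107 for Dedd, -0.34 to 0.000854 for Nuf2, -0.0353 to 0.35 for Olfr432, -0.0343 to 0.0857 for Olfr414 and -0.0539 to 0.22 for Olfr417. The cause was not tested. The 4 arrays a genotype limit the precision.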

Other observations

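At the second Cd48 probe α-Gal A(-/0) mouse 2 was at 10.77 against at most 8.41 in the other 7 mice. In the same mouse 1 of 3 Csf1r probes also stood apart, at 12.12 against 9.86 to 10.14 in the other 7 mice, and Oasl2 had 11.04 against 7.71 to 8.08 in the other 3 of its genotype. The Csf1r probe that was called had 14.01 in that mouse and 13.99 to 14.03 in the other 3 of its genotype. These probes were chosen after their values were seen, and their relation to the low number of probes above background on that array was not tested.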
